A study of Mus musculus with 3 samples.

Results

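The genes described here are the antisense noncoding genes with measurable counts in the chromatin-bound RNA of stimulated mouse macrophages. They were selected on a readout: every annotated transcript of the gene is typed antisense, and its mean expected count over the 3 libraries is at least 10. Of 2948 genes whose transcripts are all typed antisense, 4 were left out by symbol, none of which reached the minimum, 572 met the rule and 2372 did not. The gene tables list 55536 annotated genes, of which 13434 reach the same mean count, 10530 of them protein-coding. Because the counts chose the members, their own levels are given as a description with no test.

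An antisense noncoding gene is annotated on the strand opposite another gene, usually a protein-coding one, and its transcript carries stretches complementary to the exons or introns of that gene. Some of these RNAs act in cis: Airn and Kcnq1ot1 are long, nuclear and imprinted, and keep genes of their own chromosomal neighbourhood silent on one parental chromosome. Many others are short-lived and stay at the site where they are made, which is why the chromatin fraction, the RNA that remains attached to DNA, is used to look at them. In macrophages, which answer bacterial lipid by switching on inflammatory genes within minutes, antisense genes have been described beside cytokine genes.

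The study prepared ribosomal-RNA-depleted RNA from the chromatin fraction of bone-marrow-derived macrophages, primary cells of C57BL/6J mice, that had received 100 ng/ml of lipid A, the part of bacterial endotoxin sensed by TLR4, for 90 minutes. There was 1 group, of 3 libraries labelled as biological replicates that share a single donor label. The libraries began from different amounts of RNA, 1 µg in replicate 1, 250 ng in replicate 2 and 500 ng in replicate 3, so the amount and the replicate cannot be told apart. Sex and age were not collected, and no unstimulated cells were analysed here, so no value below is a response to lipid A. The p-values measure the spread between these 3 libraries, which may be technical in part.

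Expected counts in annotated genes summed to between 11106553 and 24906602 per library, with replicate 1 the shallowest. These totals include the genes of the ribosomal locus, which took a larger part of replicates 2 and 3 than of replicate 1. The members' shares of counts with and without that locus, given further on, show this. The totals therefore overstate how much shallower replicate 1 was for the other genes. Among 25 macrophage marker genes the median TPM, a level per transcript corrected for length and library size, was 28.6, and 15 of the 24 that could be tested were called above the bound defined further on, none below it. Summed TPM over the libraries ran from 1.78 to 3.83 for 10 T and NK cell markers, 0.86 to 1.06 for 8 B cell markers, 2.54 to 4.07 for 10 stromal and endothelial markers, 0.4 to 1.99 for 8 mast cell and basophil markers and 5.99 to 8.22 for 8 dendritic cell markers. The sum of 10 neutrophil markers was 21.05 to 31.49, nearly all of it from Csf3r (28.83, 19.46 and 30.91 TPM in replicates 1, 2 and 3), with Ly6g, Mpo, Elane and Retnlg at 0. Among erythroid and megakaryocyte markers Pf4 had 0.7, 5.34 and 0.82 TPM, Itga2b 0.94, 2.44 and 1.55 and Alas2 2.55, 0.46 and 0.74 in replicates 1, 2 and 3, Hba-a1, Klf1, Ppbp and Gp9 were at 0.18 or less in each library, and the globin genes Hbb-bs and Hbb-bt were at 0. Cd3e, Cd8a, Klrb1c, Ncr1, Cpa3, Mcpt4, Mcpt8, Tpsb2, Fcer1a and Prss34 were also at 0 in all 3 libraries.

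An antisense label describes the annotation, and whether the reads came from that strand depends on how they were counted. The sources used here do not give a strand setting, and the deposited file descriptions list signal tracks of unique and of all reads without a strand. Stretches of 2 members show what is at stake. Each window below is 120 bases of a member's own exon, from the GENCODE M21 transcript sequences (mm10), centred on the edge of a coding exon of the gene on the other strand. Capitals mark the bases that are the reverse complement of that coding exon, and lower case marks bases that lie in its intron. A read from the capitals can come from either gene unless the strand is known.
AC119228.1, chr19:29380244-29380363, minus strand, against Cd274: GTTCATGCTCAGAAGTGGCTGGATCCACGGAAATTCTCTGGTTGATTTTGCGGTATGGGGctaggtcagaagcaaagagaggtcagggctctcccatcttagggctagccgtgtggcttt
Gm27177, chr14:69682035-69682154, minus strand, against Loxl2: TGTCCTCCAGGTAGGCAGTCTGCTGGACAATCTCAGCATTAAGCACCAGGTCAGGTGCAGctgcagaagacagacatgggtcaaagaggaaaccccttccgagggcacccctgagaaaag

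The deposited tables carry a measure of part of this ambiguity, the posterior SD of the count of every gene. It is above 0 where reads fit more than 1 gene or isoform choice. The alignments were to annotated transcripts, so reads from an intron of the partner need not raise it. A value of 0 therefore does not show that a count is free of partner reads. Of 171 members that share no exonic base with another gene, 5 (2.92%) had a value above 0. Where bases were shared with exons of the other strand alone, it was 30 of 100 members with up to 10% shared, 186 of 228 (81.6%) with 10 to 50% shared, and 53 of 53 with at least 50% shared. In that last set the median posterior SD was 11.3% of the count and the highest 48.9%. Read assignment was thus uncertain between genes that overlap only on opposite strands, and a member's count may hold reads of its partner. Gm28913 and Gm28914, 2 members inside Ikbke with 17.86% and 23.84% of their exonic bases in exons of the other strand, had a posterior SD of 0. A further 20 members share bases with an exon of their own strand, and 13 of them had a posterior SD above 0.

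**Figure D1:**
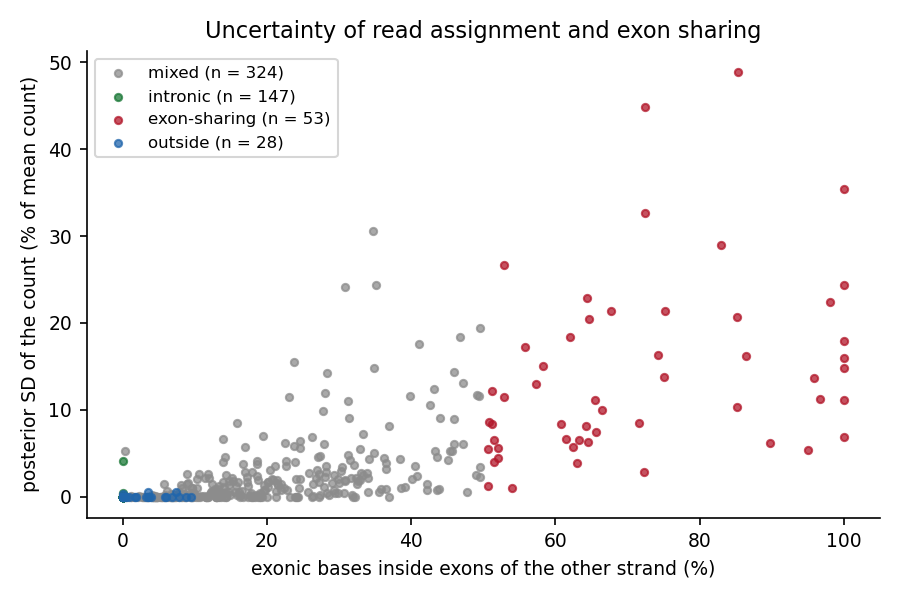
Posterior SD of the count, as a percentage of the mean count (vertical axis), against the percentage of a member's exonic bases inside exons of the other strand (horizontal axis), for the members that share no base with a same-strand exon; each point is 1 gene, coloured by location. The 53 members with at least 50% shared all lie above 0, with a median of 11.3%, while members that share no exon lie at or near 0. A value of 0 does not show that a count is free of reads from the partner's introns.

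Start regions were read from the RefSeq promoter table (GRCm38.p6), which gives 250 bases before to 50 bases after a start. It matched 198 members by symbol, chromosome and strand, and where it lists several starts the one nearest the GENCODE start was taken. Shown are the 3 members of highest mean TPM that have a partner gene, a RefSeq start within 50 bases of the GENCODE start and no annotated untranslated region in the window, and the highest such member whose partner is in the list of lipid A response genes. Capitals mark matches to the 8 motifs searched, on either strand.
Gm16712, tail-to-tail with Ebi3, chr17:55959352-55959651, minus strand: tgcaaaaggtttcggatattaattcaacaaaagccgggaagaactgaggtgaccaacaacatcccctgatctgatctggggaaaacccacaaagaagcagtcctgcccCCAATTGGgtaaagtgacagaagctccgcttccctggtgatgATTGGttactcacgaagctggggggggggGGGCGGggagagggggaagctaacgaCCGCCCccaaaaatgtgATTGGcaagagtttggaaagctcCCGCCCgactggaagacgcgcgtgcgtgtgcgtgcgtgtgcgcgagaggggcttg
Airn, head-to-head with Igf2r, chr17:12741061-12741360, plus strand: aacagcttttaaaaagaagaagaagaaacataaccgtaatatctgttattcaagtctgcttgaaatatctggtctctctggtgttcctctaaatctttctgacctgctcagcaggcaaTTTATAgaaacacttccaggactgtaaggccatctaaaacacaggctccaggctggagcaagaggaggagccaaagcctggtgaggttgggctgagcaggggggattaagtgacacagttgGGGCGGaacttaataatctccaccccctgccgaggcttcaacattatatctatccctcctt
Gm17227, inside Mark2, chr19:7297435-7297734, plus strand: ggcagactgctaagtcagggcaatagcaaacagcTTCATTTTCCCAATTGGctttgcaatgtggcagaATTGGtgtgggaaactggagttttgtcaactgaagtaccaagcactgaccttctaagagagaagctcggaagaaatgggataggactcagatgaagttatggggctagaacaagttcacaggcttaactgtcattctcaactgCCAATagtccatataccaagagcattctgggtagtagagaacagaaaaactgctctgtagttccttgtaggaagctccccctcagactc
Gm16174, inside Bcl3, chr7:19816335-19816634, plus strand: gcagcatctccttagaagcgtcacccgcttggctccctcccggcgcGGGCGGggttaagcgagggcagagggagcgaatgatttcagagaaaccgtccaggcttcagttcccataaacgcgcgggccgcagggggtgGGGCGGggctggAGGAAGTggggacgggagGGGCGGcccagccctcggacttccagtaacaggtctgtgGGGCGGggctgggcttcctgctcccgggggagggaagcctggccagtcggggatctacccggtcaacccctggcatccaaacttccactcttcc

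The Gm16712 window holds 7 matches, to CCAAT and to GGGCGG (the GC box). The Airn window holds a TATAAA and a GGGCGG, the Gm17227 window 4 CCAAT and 1 GAAANNGAA (the core of the interferon-stimulated response element), and the Gm16174 window 4 GGGCGG and 1 AGGAAGT (the ETS site that PU.1 also reads). Over the 198 matched members, GGGCGG was found in 69 (34.8%), against 23.6% of 851 matched antisense genes below the count minimum and 35.7% of all 32851 promoters in the table. AGGAAGT was found in 14.6% of members, 10.1% of the antisense genes below the minimum and 9.35% of all promoters. The other shares among members, with those of all promoters beside them, were 30.3% and 37.4% for CCAAT, 9.09% and 13.6% for TATAAA, 7.07% and 7.81% for TGANTCA (AP-1) and 8.59% and 8.56% for GAAANNGAA. TGACGTCA (CRE) was found in 1 member and 1.79% of all promoters, and GGGANTTCC or GGGACTTTC (NF-kB) in 5 members (2.53%) and 2.02% of all promoters. A match is a run of letters, and no test was made of these shares.

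Most members lie over a protein-coding gene. The partner of a member is the protein-coding gene on the opposite strand whose body overlaps it by most bases, or, where none overlaps, the one whose start is nearest within 5000 bases. By this rule 334 members (58.4%) lay wholly inside their partner, 107 (18.7%) overlapped it tail-to-tail, 101 (17.7%) head-to-head, 17 contained it, 1 lay apart and 12 had no partner. Among antisense genes below the minimum the shares were 53.6% inside, 13.0% tail-to-tail and 21% head-to-head. The 560 members with a partner had 522 different partners. Arhgap10 carried 4 members (0610038B21Rik, 4933421D24Rik, Gm45285 and Gm45406), and App, Ano6, Fmn1, Lrmda and Zbtb20 carried 3 each. Starts of 57 members fell within 1000 bases of the partner's start, and the median member start lay 26681 bases downstream of it.

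Members were longer in spliced sequence than the antisense genes that missed the minimum, with a median of 1683 exonic bases against 808, although their genomic spans had similar medians of 5365 and 5864 bases. The rule is a minimum on counts, which are not corrected for length, and its part in this difference was not tested. A single merged exon was annotated for 81 members (14.2%) and for 127 antisense genes below the minimum (5.35%). More than 1 isoform was annotated for 182 members, up to 20 for Gm26885 beside Pim1. Chromosome 7 held the most members, 44. Chromosome Y had 1 antisense gene and no member. On the other chromosomes the share of antisense genes that reached the minimum ran from 9.6% on chromosome 4 to 30.2% on chromosome 12.

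Levels of the members were low and spread over a wide range. Mean TPM ran from 0.107 to 149.4 with a median of 2.17, and 68 members had at least 10 TPM while 155 had under 1. In replicates 1, 2 and 3 the median member was at 3.25, 1.44 and 1.73 TPM, and the median protein-coding gene tested was at 5.5, 3.7 and 4.93 TPM. The members together held 0.967%, 0.287% and 0.356% of the expected counts in annotated genes. Without the 3 annotated genes of the ribosomal locus (Gm26917, CT010467.1 and Gm42418) these shares were 1.07%, 0.584% and 0.577%. The 10 members with the most counts held 37.5% of the members' counts.

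Near the threshold the counts were small and uneven. The 5 members just inside it, Gm16239, Gm16549, 4930481A15Rik, 1700010G06Rik and Gm44702, all averaged 10, and Gm16549 had 13, 12 and 5 counts in replicates 1, 2 and 3. The 5 genes just outside, 9630028B13Rik, Gm16287, Gm39318, Gm20089 and Gm26944, averaged 9.67 to 9.89, and 9630028B13Rik had 11, 17 and 1. In replicate 2 alone, 519 members had at least 10 counts. No count was found for 2 members in replicate 1 and for 1 member in replicate 2. In these libraries 3 counts, about the upper 95% limit for a count of 0, come to 0.27 and 0.12 CPM. CPM are counts scaled to the library total, here with the ribosomal locus included.

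Gm40578 had the highest mean TPM of the members. It lies tail-to-tail with Tnfaip2, a gene induced by tumor necrosis factor, at chr12:111450405-111500840 on the minus strand of mm10, and 29.4% of its exonic bases are in exons of the other strand. Its TPM was 130.8, 157.9 and 159.6 in replicates 1, 2 and 3 (149.4 ± 16.2, SD, n = 3). Tnfaip2 was at 1690 ± 220 TPM (SD, n = 3), the highest of all partners. Gm40578 was the 1 gene among the 20 highest members that was not highest in replicate 1 by TPM, a scale on which the median protein-coding gene was also highest there.

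The next members stood out by how far replicate 1 lay from the others. AC119228.1, inside Cd274, the gene of the checkpoint ligand PD-L1, at chr19:29373417-29384471, had 261.8, 38.29 and 66.28 TPM, and Cd274 itself 131.8 ± 84.4 TPM (SD, n = 3). 4933423P22Rik lies wholly in introns of Ptprj, a receptor tyrosine phosphatase gene, at chr2:90479236-90488425, shares no exonic base with another gene, and had 205.7, 46.27 and 62.12 TPM. Both were above their partner in replicate 1 and below it in replicates 2 and 3, and the SD of their log2 CPM was 1.14 and 0.82. Gm28913 in Ikbke, which encodes the kinase IKK-epsilon, had 115.1, 52.69 and 61.54 TPM beside 749.9 ± 71.2 TPM (SD, n = 3) for Ikbke, and Gm28914 in the same gene had 33.41, 18.76 and 23.46 TPM.

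Several of the highest members shared a partner or a neighbourhood. Gm17590 and Gm42435 both lie inside Cdk6, a cell cycle kinase gene, with means of 46.6 and 32.1 TPM beside 182.3 TPM for Cdk6. Gm17590 had 73.94, 34.19 and 31.54 TPM and Gm42435, which lies wholly in introns, had 66.82, 12.62 and 16.78 TPM, so the intronic one fell further from replicate 1 to the other libraries. Gm16094 and Gm17017 lie on chromosome 1 beside the nuclear body genes Sp110 and Sp140, with means of 46.7 ± 52.5 and 29.8 ± 23.6 TPM (SD, n = 3). Gm16094 is the 1 member apart from its partner, and had 107.2, 12.2 and 20.73 TPM.

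The remaining members of the 20 highest averaged 26.8 to 61.8 TPM. They were Gm27177 (Loxl2), Gm13556 (Dennd1a), Gm15726 (Mid1), Gm37787 (Slamf7), Gm45515 (Swap70), Gm16712 (Ebi3), Airn (Igf2r), Gm27222 (Slc25a37), 1700060J05Rik (Slc44a1), Gm44876 (Il4ra), Gm15601 (Ddhd1) and Gm12000 (Ikzf1), with the partner in brackets. Slamf7, Ebi3, Il4ra and Ikzf1 encode an immune receptor, a cytokine subunit, the interleukin-4 receptor and the Ikaros factor. Gm37787 and Gm44876 have 72.3% and 85.2% of their exonic bases in exons of the other strand, and the posterior SD of their counts was 2.84% and 10.3%. Gm45515 had the lowest SD of the 20 in log2 CPM scaled by TMM, 0.064. Its TPM was 42.51, 26.4 and 36.97, further apart as ratios than that of Gm40578.

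**Figure D2:**
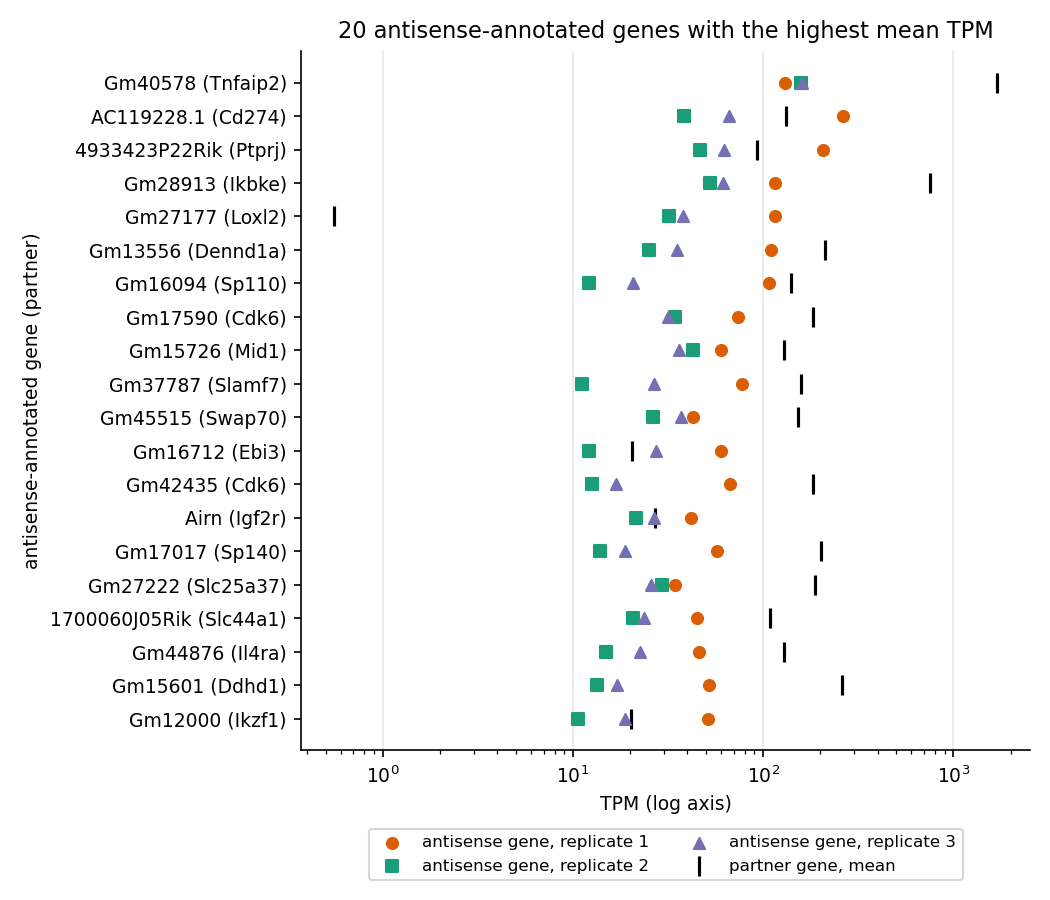
TPM of the 20 members with the highest mean (horizontal axis, log scale), with a symbol for each replicate and a bar for the mean TPM of the partner gene named in brackets. In 19 of the 20 genes replicate 1 is the highest of the 3 libraries in TPM, and the partner's mean lies to the right of all 3 for most genes. The median protein-coding gene tested was also highest in replicate 1 (5.5 TPM, against 3.7 and 4.93 in replicates 2 and 3). The choice by mean TPM favours genes that are high in 1 library.

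The 2 imprinted macro RNAs were both among the members. Airn, at chr17:12741311-12860136 on the plus strand, had 468, 464 and 460 counts, or 41.73, 21.47 and 26.58 TPM, and shares no exonic base with another gene. Igf2r, the growth factor receptor gene that Airn silences on the paternal chromosome, had 20.41, 33.84 and 26.63 TPM. By these alignment-based values Airn was above Igf2r in replicate 1, below it in replicate 2 and level with it in replicate 3. The alignment-free values of Airn, given further on, were higher. Of the 6 annotated Airn isoforms, ENSMUST00000079529.6 took 54.0 ± 7.8% (SD, n = 3) of the gene's level, per the deposited isoform percentages. Kcnq1ot1, a single exon of 93092 bases inside Kcnq1 at chr7:143203458-143296549, had 6800, 5243 and 4659 counts, the second highest mean count of the members, and because of its length only 5.22, 2.07 and 2.36 TPM. Kcnq1, which encodes a potassium channel, had 0.05, 0.08 and 0.15 TPM.

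Tug1, a long noncoding RNA gene that starts near Morc2a, had 23.43, 10 and 18.11 TPM (17.2 ± 6.8, SD, n = 3), and Morc2a 14.1 ± 1.5 TPM (SD, n = 3). Gt(ROSA)26Sor, the locus used for transgenes, had 6.43, 1.54 and 2.27 TPM, and Nron, named for its repression of NFAT, 0.32, 0.22 and 0.29 TPM. Zmiz1os1, head-to-head with Zmiz1, had 5.41, 10.05 and 12.15 TPM and was lowest in replicate 1. Kcnq1ot1 is named because it exceeds its partner, and Tug1, Gt(ROSA)26Sor, Nron and Zmiz1os1 were chosen for their names after their values were seen.

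The rule did not read the levels of the partners, but a member's count may hold reads of its partner, so the counts of partners below are not independent of the selection and are given as a description. A gene's level is its log2(TPM + 1) relative to the median protein-coding gene tested in that library, and limma's treat asked for every gene whether it lay more than 1 log2 unit from that median, with Benjamini-Hochberg adjustment over all 13434 genes at 0.05. Over all genes tested, 21.3% were called above the bound and 21.3% below it, and over protein-coding genes 24.1% and 19.5%. Of 522 partners 491 could be tested: 239 (48.7%) were called above, 34 (6.92%) below and 218 neither, with a median level of 1.41. Partners that carry only antisense genes below the minimum were called above in 159 of 872 cases (18.2%) and below in 256 (29.4%), with a median level of -0.51. For the 152 partners of members that share no exonic base with another gene (reads in introns may still be shared), 74 of 147 tested (50.3%) were called above and 11 (7.48%) below. With a minimum mean count of 100, 142 of 412 partners (34.5%) were above, beside 17.8% of all genes tested. With no minimum the reference fell and every level rose by 2.24, and limma called 409 of 522 partners (78.4%) above, beside 13.2% of all genes, while no gene could lie below the bound. The count below the bound was 15 without replicate 3.

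Tnfaip2 and Ikbke were the highest partners by mean TPM. After them came Fyb, an adaptor of immune cells, at 390.5 ± 49.1 TPM, Rasa4 at 386.8 ± 45.3 and the scaffold gene Iqgap1 at 311.4 ± 87.0 (SD, n = 3 each). Ccnl1, Rbm25, Ddhd1, Lcp1, Brd2, Gramd1a, Nrp2, Nktr, Camk2d and Il1b followed with means of 292.0 to 214.6 TPM. These 15 were chosen as the partners of highest TPM, and their levels ran from 5.22 to 8.21. The antisense genes beside the third to the fifth were much lower: Gm2245 beside Fyb, Gm15701 beside Rasa4 and Gm44649 beside Iqgap1 averaged 8.51, 11.4 and 8.24 TPM.

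Whether an antisense gene reached the minimum moved with the level of its partner. Where the overlapping partner had a mean under 0.1 TPM, 19 of 1073 antisense genes (1.77%, 95% Wilson interval 1.14 to 2.75) reached a mean count of 10. The share was 9.4% (7.03 to 12.5) for partners at 0.1 to 1 TPM, 24.4% (20.5 to 28.9) at 1 to 5, 40.5% (35.9 to 45.2) at 5 to 20, 56.5% (50.7 to 62.1) at 20 to 100 and 75.6% (65.8 to 83.3) at 100 or more, where 68 of 90 did. These intervals cover counting error only. A gene's count may hold reads of its partner, so the share and the partner's level are not independent. The part of shared reads in this order was not tested. No class had a lower share than the one before it.

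The same order held for antisense genes whose exons share no base with any exon and lie at least 90% inside genes of the other strand, called intronic here. They reached the minimum in 1 of 344 cases (0.291%) under 0.1 TPM, 27.4% at 1 to 5 and 22 of 32 (68.8%, 51.4 to 82.0) at 100 or more. Sense-intronic genes, noncoding genes annotated inside an intron on the same strand, were counted beside them, again without shared exons. They reached it in 0 of 82 cases under 0.1 TPM, which allows up to 4.48%, then in 47.2% (34.4 to 60.3) at 1 to 5 and 72.6% (60.4 to 82.1) at 5 to 20, against 39.1% (30.7 to 48.3) of intronic antisense genes in that last class. At 20 to 100 TPM the shares were 65.4% of sense-intronic and 58.2% of intronic antisense genes, and at 100 or more 42.9% (3 of 7, 15.8 to 75) and 68.8%, so that the order turned in the highest class. The intervals of both of these classes overlap. For partners of at least 20 TPM, the median intronic antisense gene stood at 6.39% of its partner's TPM (quartiles 1.34 and 14.6, 99 genes) and the median sense-intronic gene at 6.15% (quartiles 1.47 and 12.4, 59 genes). With strand not known to be separated, reads of unspliced partner RNA in these introns and reads of antisense RNA cannot be told apart.

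**Figure D3:**
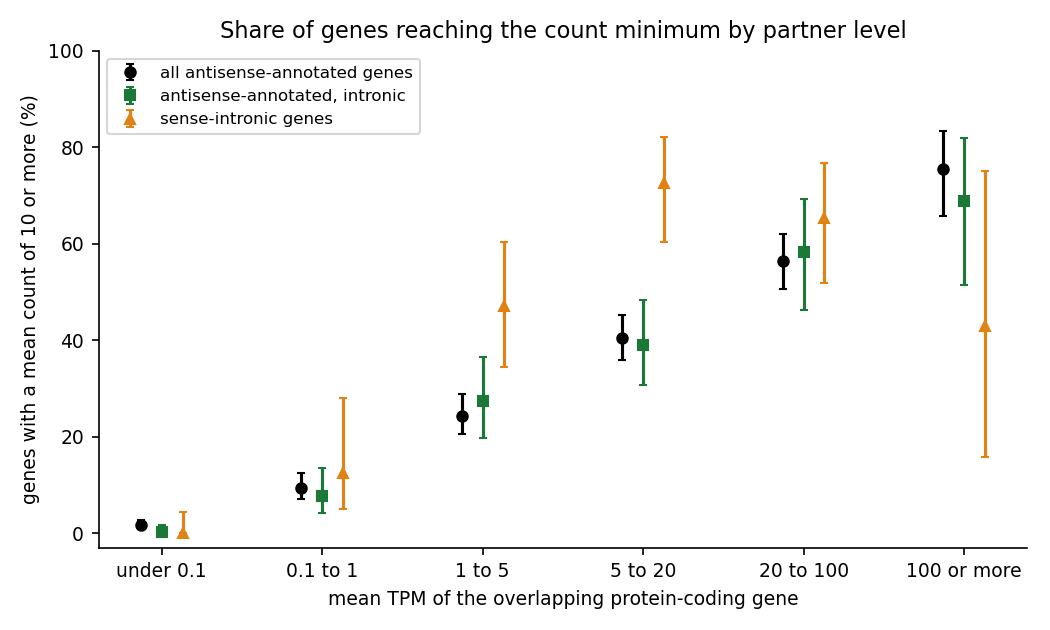
Percentage of genes whose expected counts average 10 or more (vertical axis) by mean TPM of the overlapping protein-coding gene (horizontal axis, classes), for all antisense-annotated genes, the intronic ones and sense-intronic genes; bars are 95% Wilson intervals. For all antisense-annotated genes the share runs from 1.77% under 0.1 TPM to 75.6% at 100 TPM or more. A gene's count may hold reads of its partner.

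Within pairs, the antisense gene was usually the lower one. The difference in log2(TPM + 1), member minus partner, had a median of -2.08 over all 560 pairs, and over the 559 overlapping pairs the library medians were -1.76, -2.04 and -2.26 in replicates 1, 2 and 3. The member was lower in all 3 libraries in 459 pairs, higher in all 3 in 43 and mixed in 57, and the mean difference was above 0 in 70. Across pairs, mean TPM of member and partner had a Spearman correlation of 0.583 for 146 intronic members. It was 0.7 for 56 members with 50% or more of their exonic bases in exons of the other strand (called exon-sharing here). For 335 mixed ones it was 0.524, and for 22 with under 10% of their exonic bases inside genes of the other strand 0.223. These are descriptions across pairs that share 3 libraries, and the exon-sharing pairs share reads as well.

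**Figure D4:**
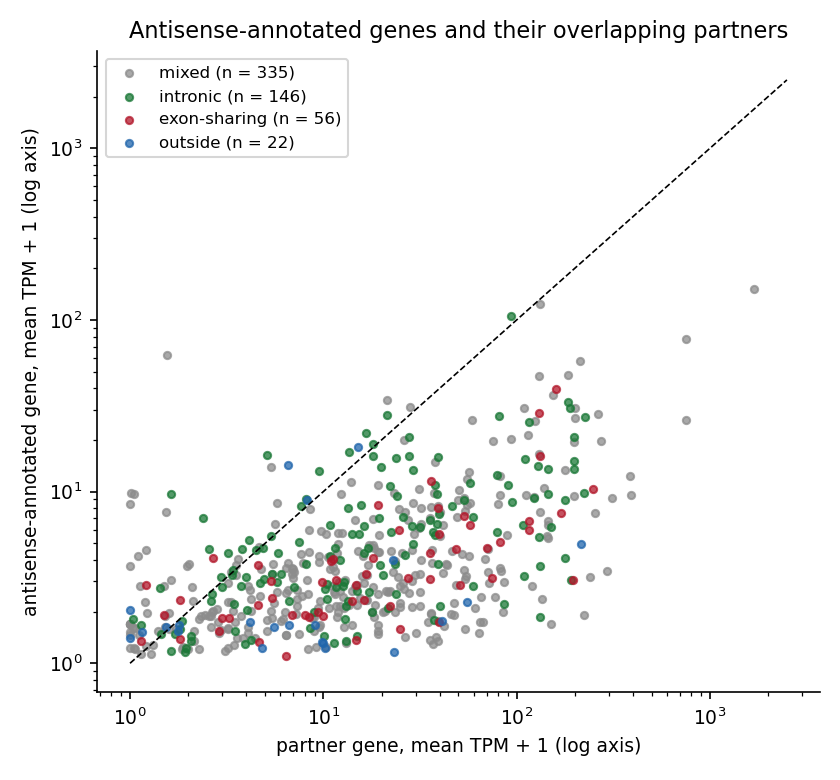
Mean TPM + 1 of each member (vertical axis, log scale) against that of its overlapping partner (horizontal axis, log scale), coloured by location; the dashed line marks equal levels. Most of the 559 points lie below the line, and Gm27177 stands above it at a mean of 61.8 TPM beside 0.557 TPM for Loxl2.

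The 15 members furthest above their partner were above it in all 3 libraries. Gm27177, at chr14:69582164-69683286 over the start of Loxl2, a lysyl oxidase gene, had 115.7, 31.79 and 37.97 TPM, and Loxl2 0.557 ± 0.239 TPM (SD, n = 3), a mean difference of 5.10 ± 0.92. The level of Loxl2 was -1.87, and in the alignment-free tables it was 0.43, inside the bound. Alyref2, the partner of B930036N10Rik (6.56 ± 2.05 TPM, SD, n = 3), was at -1.90. Both lay below the bound in the alignment-based tables, a description, since a low partner is part of how these pairs were chosen.

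Other cases were Gm26642 over Elf3 (8.85 and 0.00667 TPM), Gm47079 over Icam4 (7.51 TPM, with Icam4 listed at 0), 1700019L13Rik inside Cx3cr1, the fractalkine receptor gene (8.64 and 0.05 TPM), and Etohd2 over Gm49354 (2.7 TPM, with Gm49354 listed at 0). In these 4 another overlapping protein-coding gene on the other strand was higher than the member: Rnpep at 101.5 TPM for Gm26642, Icam1 at 406.3 for Gm47079, Csrnp1 at 29.21 for 1700019L13Rik and Tut7 at 65.67 for Etohd2. The other 9, Gm30329, Kcnq1ot1, Gm4673, Gm15261, Gm45435, Gm17056, Gm17435, 6330418K02Rik and 1600020E01Rik, had differences of 1.09 to 2.61. Gm15261, wholly in introns of Arhgap6, had 31.62, 5.64 and 8.83 TPM beside 4.09 ± 1.46 TPM (SD, n = 3) for Arhgap6. Icam1, the adhesion molecule gene, is a gene of the lipid A response list.

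Of the 158 genes in that list, 12 were partners of 13 members. Over the whole list 153 genes could be tested, 106 were called above and 8 below, and of the 12 partners 7 were above, 1 below and 4 neither, beside 21.3% and 21.3% of all genes. Without replicate 2 the list had 5 genes below and without replicate 3 it had 2. The list was written for macrophages under this stimulus with results of these data known, so its direction is not independent evidence. The highest of the list were Malt1, Ikbke, Tnip3 and Tnfaip3, with levels of 7.23, 7.05, 6.80 and 6.41, and the lowest Fosb and Egr3, at -2.03 and -2.19.

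Il1bos lies beside Il1b, the gene of the cytokine interleukin-1 beta, at chr2:129369897-129375748, and only 0.839% of its exonic bases are in exons of the other strand. It had 5.44, 3.03 and 3.39 TPM, and Il1b 252, 192.8 and 199 TPM, a difference of -5.46 ± 0.15 (SD, n = 3). Its count had a posterior SD of 0. Gm26885, over the start of Pim1, a serine kinase gene, had 6.29, 12.51 and 9.77 TPM and was lowest in replicate 1, with Pim1 at 137.9 ± 26.9 TPM (SD, n = 3).

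Members wholly in introns of list genes were Gm45479 in Irf2, an interferon regulatory factor gene, with 28.68, 7.55 and 8.27 TPM, Gm16174 in Bcl3, a nuclear I-kappa-B family gene, with 11.39, 11.36 and 11.95, Gm36328 in Dusp16, a MAP kinase phosphatase gene, with 14.7, 4.51 and 10.23, and Gm10851 in Pfkfb3, a regulator of glycolysis, with 3.72, 0.87 and 1.57. Gm16174 was the steadiest of these, at 11.6 ± 0.3 TPM (SD, n = 3). Irf2, Bcl3 and Pfkfb3 were called above the bound and Dusp16 was not.
The others were low: Gm47118 in Edn1, Gm11175 in Jund, Gm15283 over Hif1a, Gm47009 in Irak3 and Gm48780 in Arg2 averaged 3.76, 2.72, 2.36, 1.42 and 1.32 TPM. Hif1a, the hypoxia factor gene, was called above. Arg2, an arginase gene, was called below, a call that was lost without replicate 2 and without replicate 3. Edn1, Jund and Irak3 were called neither. Gm11175 has all of its exonic bases in the exon of Jund, and its posterior SD was 35.4% of its count.

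Turnover genes of antisense and promoter RNA were examined as a list. Exosome, nuclear exosome targeting and early termination factors limit how much of such RNA remains on chromatin. The list also holds Dcp2, Upf1 and Pnldc1, which are not specific to such RNA. Dcp2 and Upf1 were called neither above nor below, and Pnldc1 was not tested. Of 35 symbols 31 matched and 29 could be tested: 9 were called above the bound, 2 below and 18 neither, beside 21.3% above and 21.3% below over all genes tested, with a median level of 0.49. The highest were Zfc3h1, which links polyadenylated nuclear RNA to the exosome, at 147.5, 87.0 and 131.4 TPM, Srrt (Ars2) at a mean of 81.2, Pabpn1, the nuclear poly(A) binding protein, at 66.3 and the exonuclease Xrn2 at 53.9. Zcchc7, Mtrex, Rbm7, Zc3h18 and Zcchc8 were also above. The lowest were the exosome subunits Exosc4 and Exosc5 at 0.733 and 0.79 TPM, called below with limma adjusted p-values of 0.033 and 0.0336. Both calls were lost without replicate 3, with posterior mean TPM and with the median of all genes as reference. Zc3h4, which restrains unproductive noncoding transcription, was the 1 gene of the list that is a partner of a member, and was called neither.

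The members differed more between libraries than all genes tested, by their medians, and leaving out replicate 1 lowered the spread of both. The median SD of log2 CPM, scaled by TMM with a prior count of 2, was 0.503 for members, 0.398 for all genes tested and 0.358 for protein-coding ones, and without replicate 1 it was 0.219 for members and 0.175 for all genes. At mean counts of 10 to 20 the medians were alike, 0.522 for 168 members and 0.519 for all 1772 genes. They were 0.484 and 0.456 at counts of 20 to 50, and 0.462 and 0.411 at 50 to 100, members first. At 100 or more they were 0.523 for 141 members and 0.35 for all 7399 genes. That last class has no upper end, so the counts of members and of all genes are not matched within it.

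Replicate 1 was the highest library for 388 members (67.8%) and the lowest for 107 (18.7%). Among all genes tested it was the highest for 44.5% and the lowest for 42.9%, and among protein-coding genes for 36.4% and 50.5%. The median of replicate 1 minus the mean of replicates 2 and 3 was 0.60 log2 CPM for members, 0.02 for all genes tested and -0.14 for protein-coding genes. The difference was over 1 for 166 members (29.0%), against 13.9% of all genes, and under -1 for 28 members (4.9%), against 10.9% of all genes. Replicate 1 had the most starting RNA, and 31.1% of its protein-coding expected counts were in isoforms annotated as retained introns, against 19.3% and 20.0% in replicates 2 and 3. The part of these in the difference was not tested.

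The difference moved with where the members lie, in classes drawn after the data were seen. The median was 0.86 for 147 intronic members, of which 115 (78.2%) were highest in replicate 1. It was 0.23 for the 56 exon-sharing members, 0.46 for 32 with under 10% inside genes of the other strand and 0.50 for the 337 others. The partners of the intronic members had a median of -0.16, beside -0.14 for protein-coding genes. Partners of the other classes were also below 0, at -0.30 for exon-sharing members, -0.17 for mixed ones and -0.16 for those with under 10% inside. Between an intronic member and its partner, the Spearman correlation of this difference was 0.437 over 143 pairs, which share the 3 libraries. The correlation was 0.414 for 54 exon-sharing pairs, 0.325 for 312 mixed ones and 0.128 for the 19 with under 10% inside. Intronic members thus stood highest above the other libraries in replicate 1 by their median. The median of their partners lay below 0, as it did for the partners of every class.

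**Figure D5:**
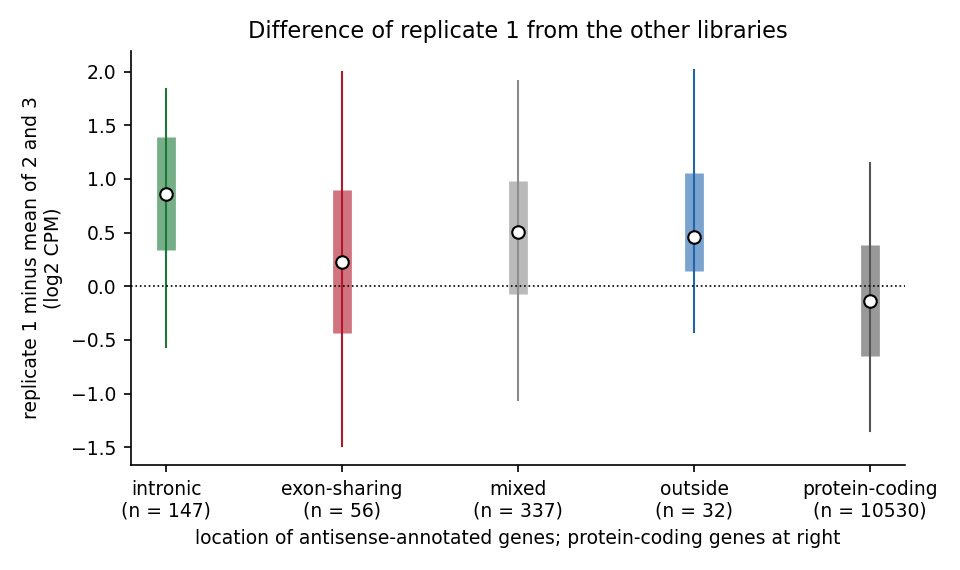
Log2 CPM in replicate 1 minus the mean of replicates 2 and 3 (vertical axis) for members by location and for protein-coding genes (horizontal axis); points are medians, thick bars quartiles and thin lines the 5th to 95th percentile of genes. The intronic members have a median of 0.86 and protein-coding genes one of -0.14.

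Among 236 members with a mean count of at least 50, the 10 with the largest SD were highest in replicate 1 in 9 cases. A large SD over 3 libraries picks genes in which 1 library lies apart, so this count follows in part from the choice. Over all members 67.8% were highest in replicate 1 by log2 CPM, and over all genes tested 44.5%. The 9 cases were Gm15356 in March1 (6.28, 0.38 and 0.79 TPM, SD 1.69), Gm16094, 4933431G14Rik, Gm31763, Gm47272, Gm15859, Gm10847, AC119228.1 and 6530409C15Rik. The exception, 1700019L13Rik inside Cx3cr1, was lowest in replicate 1 at 4.33 TPM, against 12.55 and 9.04. The 5 with the smallest SD on this scale, A130051J06Rik, 2900089D17Rik, Gm47071, Uckl1os and Gm45515, had SDs of 0.026 to 0.064. Of these 5 picked genes 4 overlap their partner head-to-head or tail-to-tail, positions held by 17.7% and 18.7% of all members, and no link of position with SD was tested. A130051J06Rik, beside Ano6, had 5.39, 3.28 and 4.42 TPM.

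The deposit also holds alignment-free estimates of the same libraries. Of the 572 members, 567 reached a mean of 10 in those tables too, but so did a further 793 antisense genes, which brings the number to 1360. The Spearman correlation of mean TPM between the tables was 0.807 across the members. Members stood lower in the alignment-based tables by a median of 0.41 log2(TPM + 1), and all genes tested by 0.32.

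By location, the median difference, alignment-based minus alignment-free, was -0.61 for the 32 members with under 10% inside genes of the other strand. It was -0.57 for intronic, -0.36 for mixed and -0.03 for exon-sharing members. The 10 members furthest above in the alignment-based tables were exon-sharing in 9 cases, a class that holds 9.79% of the members, with Gm26716 in Sdc3 (7.36 against 0.305 TPM), CR974462.3 in Brd2 (9.4 against 2.81), Gm44709 in Supt5 (10.5 against 1.79), Gm17139 in Arel1, Gm11175 in Jund and Gm47123 in Ctsl in front. Gm47123 averaged 50.6 expected counts and was listed at 0 in all 3 alignment-free tables. Gm45894, Gm15512, Gm15354 and Gm13966 followed. The 10 furthest the other way were intronic in 6 cases, mixed in 2 and exon-sharing in 1, and intronic members are 25.7% of all. Gm48765, in introns of Fars2, had 0.44, 0.23 and 0.36 TPM in the alignment-based tables and 240.8, 47.1 and 103.3 in the alignment-free ones, where its mean count was 7136 against 14. Gm47578 (0.4 against 40.4 TPM), Gm47738 (0.91 against 57.2) and Gm49226 in App (3.13 against 79.3) were next, followed by Gm15738, Gm12227, Gm44649, Gm28809, 1700058P15Rik and Gm48754. Levels of these members therefore depend on the table, and Airn was also higher in the alignment-free tables, at 171.2, 44.31 and 71.13 TPM.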

How the data were processed

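Per the labels, each of the 3 libraries is RNA of 1 chromatin fraction. Per the deposited file descriptions, the authors made expected counts and TPM values per gene and per transcript from transcriptome alignments to mm10 with GENCODE M21, and alignment-free estimated counts and TPM from the reads. The aligner, its version and the strand setting are not stated in these sources. The posterior SD of the count is a score in reads, per the file headers, and the isoform percentages are the authors' percent values, per the file headers. Replicates were deposited separately.

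Genes were typed from the transcript names in the deposited tables and placed with the M21 annotation. Levels, log2(TPM + 1) minus the library's median protein-coding gene, were tested with limma 3.58.1 treat in R 4.3.3 against a bound of 1 log2 unit, over all 13434 genes whose expected counts averaged 10 or more, with Benjamini-Hochberg adjustment. Expected counts were rounded for edgeR 4.0.16. The edgeR alternative had been planned with glmTreat, which does not accept a design of 1 column, so each bound was tested with a quasi-likelihood F statistic computed from the edgeR fit. The spread between libraries used log2 CPM with edgeR's TMM factors, and DESeq2 1.42.0 size factors as an alternative. Both tests were tested on simulated counts and the overlaps checked by a base-by-base recount. The simulated libraries shared 1 dispersion and held no shift of replicate 1, so they do not show how the calls behave under such a shift.

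Library depth is given with the data; 3 libraries limit the precision of every SD. The members, lists and tests were chosen with earlier results of these data known. Named members are the 20 highest, those furthest above their partner, those beside a listed lipid A gene, those at the threshold, and those most or least variable or most different between tables. Alternatives covered the pseudocount, the minimum, the tables, the reference, the partner rule and each library left out. Location classes and the subset without shared exons were added after the data were seen. The sum over 1 marker list is not reported here.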

Additional observations from a re-analysis of the deposited data

How the results depend on the processing

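No paired analysis was possible because there is 1 group, so no replicate number recurs across groups. With no minimum count the reference fell, every level rose by 2.24 and a gene at 0 TPM lay at -0.258, so no gene could be called below. Limma's treat then called 409 partners above the bound and 0 below, 25 turnover genes above and 0 below, and 0 lipid A response genes below. These 3 counts of 0 are fixed by the scale (0 genes at an unadjusted p under 0.05), and edgeR's quasi-likelihood test with the minimum called 39, 2 and 8. With a minimum mean count of 100, fewer genes were tested, every level changed by -1.07, and the counts were 142 and 22 partners, 4 and 1 turnover genes, and 0 lipid A genes below (4 at an unadjusted p under 0.05, 8 by edgeR). With the median of all genes as reference 22 partners, 0 turnover genes and 4 lipid A genes were below, and with posterior mean TPM 0 turnover genes were below; each of those 0 counts had 1 gene at an unadjusted p under 0.05, and edgeR called 2. Members with at least 20 counts gave 18 partners below. Members sharing no exonic base gave 74 partners above and 11 below, 21 members above their partner and a median difference of -1.83. A pseudocount of 0.1 gave a median difference of -2.53, and library totals with no factor a median SD of 0.84.

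Leaving out each library gave 206 to 250 partners above and 15 to 38 below (15 without replicate 3), 7 to 12 turnover genes above and 0 to 2 below (0 without replicate 3, with 1 at an unadjusted p under 0.05), and 103 to 108 lipid A genes above and 2 to 9 below (5 without replicate 2, 2 without replicate 3). It gave 550 to 591 antisense genes at the minimum, 55 to 77 above their partner, a median difference of -2.16 to -1.95 and a median SD of 0.219 to 0.539 (0.219 without replicate 1). A minimum of 50 or 100 left 236 or 141 antisense genes. The cause of these changes was not tested, apart from the number of genes tested.

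The shift of 2.24 with no minimum is the same for every gene, and the levels it carried past 0 were 0.368 for Loxl2, 0.347 for Alyref2, 2.04 for Arhgap6, 0.904 for Anapc10, 2.07 for Med26, 1.87 for Jund, 0.803 for Arg2, 1.92 for Edn1, 0.556 for Exosc5, 0.493 for Exosc4, 0.208 for Fosb and 0.052 for Egr3. With the median of all genes as reference they were 0.007 for Arhgap6 and 0.037 for Med26. Loxl2 was at 0.428 and Pcbp1 at -0.627 in the alignment-free tables. Pcbp1 was at -0.871 with a minimum of 100 and at -0.003 with posterior mean TPM. With 1 library left out, Med26 lay from -0.425 to 0.017 and Jund from -0.638 to 0.066.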
